A study of Homo sapiens with 18 samples.

Results

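The 28 genes described here make, move and sense cholesterol, and they were followed in human melanoma cell lines in which ARID2 had been targeted by CRISPR. ARID2 belongs to PBAF, a SWI/SNF complex that remodels chromatin. The 28 genes were chosen by name for their function, out of 56629 gene symbols in the count tables. Earlier results of these data were known at that choice, so the shares set against all genes below are descriptive. They comprise 18 enzymes of the pathway in the order in which they act, 5 regulators of the SREBP transcription factors, 2 carriers of sterol inside the cell, and 3 target genes of the LXR nuclear receptors. All 28 passed the filter on low counts in the SKmel147 cell line, and 26 did in the 501mel cell line, where the exporters ABCA1 and ABCG1 were too low to test.

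SKmel147 comes from a metastatic melanoma with the NRAS change Q61R. Its ARID2 KO lines are KO1.5, KO1.4 and KO3.20, each carrying Lenti-Cas9 and a PLKO sgRNA vector by stable infection. Its controls are NT, which carries the same kinds of construct, and Par, which carries none. 501mel comes from a metastatic melanoma with the BRAF change V600E. Its ARID2 KO lines are KO5.2 and KO1.8, which carry the Lenti-CRISPR V2 vector with Cas9 and sgRNA. Its controls are NTC, with that vector, and Par, with none. Each of the 9 lines has 2 libraries, 18 in all, made from polyadenylated RNA of cells grown in DMEM with 10% FBS. The labels spell out neither NT nor NTC, and they do not say whether a line is a clone or a pool, or whether its libraries come from separate cultures. The p-values below therefore measure the spread between libraries, which may be technical. In bulk RNA, fewer cells with a transcript and less of it per cell cannot be told apart.

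Cells build cholesterol from acetyl-CoA through the mevalonate pathway, which first makes isoprenoid units, joins them into squalene, closes squalene to lanosterol and then trims lanosterol to cholesterol. When sterol in the endoplasmic reticulum is low, SCAP carries the SREBP proteins, encoded by SREBF1 and SREBF2, to the Golgi, where they are cut free to switch on the enzyme genes. When sterol is high, the INSIG proteins hold SCAP back, and oxysterols activate the LXR receptors, which switch on the export pumps. Isoprenoid units from the same pathway also feed ubiquinone, dolichol and the lipid anchors of small GTPases such as NRAS.

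Library totals were 21266522 to 35670140 counts in SKmel147 and 16749707 to 20606855 counts in 501mel. Levels are given in CPM, counts per 1e6 of the library's total after TMM scaling. ARID2, the targeted gene, was at 55.4 and 45.97 CPM in KO1.5, 56.5 and 56.96 CPM in KO1.4 and 39.8 and 46.8 CPM in KO3.20, against 66.9 and 62.3 CPM in NT and 72.8 and 67.3 CPM in Par. In 501mel it was at 19.8 and 20.96 CPM in KO5.2 and 30.9 and 31.95 CPM in KO1.8, against 40.9 and 43.2 CPM in NTC and 43.2 and 40.9 CPM in Par. All KO libraries were below all controls in both cell lines, the log2 fold change was -0.43 ± 0.082 in SKmel147 and -0.73 ± 0.051 in 501mel (± standard error, here and below), and ARID2 transcript was still counted in every KO library. Of 7 melanocytic markers, 7 averaged at least 1 CPM in 501mel, with a summed level of 5669 to 5988 CPM in KO libraries and 5012 to 6180 CPM in controls. In SKmel147 only 3 did, with DCT, PMEL, S100B and TYR under 1 CPM and a summed level of 170 to 236 CPM in KO libraries and 165 to 263 CPM in controls. Of 4 epithelial and 4 fibroblast markers, 2 each averaged at least 1 CPM in SKmel147 and none in 501mel, and none of 4 leukocyte or 4 endothelial markers did in either. In SKmel147 the summed fibroblast markers were at 12.5 to 18.1 CPM in KO libraries and 9.22 to 11.1 CPM in controls, with DCN and PDGFRA under 1 CPM, and the summed epithelial markers at 37.8 to 43.1 CPM in KO libraries and 37.1 to 55.6 CPM in controls. The part of these markers in the results below was not tested.

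Promoter windows, from 250 bases before to 50 bases after the start site, were matched for 24 of the 28 genes in RefSeq tables of the build GRCh38.p14; none was used here for ACAT2, FDFT1, SQLE and ABCG1. Shown are the windows of 5 genes that passed the test with the same sign in every KO line of a cell line, were among the 6 with the smallest p there, and held a searched motif. SCAP met the other conditions but was not among the 6. FDPS lies at chr1:155308616-155308915, plus strand; SREBF2 at chr22:41832855-41833154, plus strand; INSIG1 at chr7:155297628-155297927, plus strand. IDI1 lies at chr10:1049070-1049369, minus strand, and STARD4 at chr5:111512486-111512785, minus strand. Each is written 5′ to 3′ along its gene, with the motif letters in capitals: TCACNCCAC, the sterol regulatory element that SREBP proteins bind; CACGTG, the E-box; and CCAAT, the box of the factor NF-Y, which appears as ATTGG on the other strand.
FDPS: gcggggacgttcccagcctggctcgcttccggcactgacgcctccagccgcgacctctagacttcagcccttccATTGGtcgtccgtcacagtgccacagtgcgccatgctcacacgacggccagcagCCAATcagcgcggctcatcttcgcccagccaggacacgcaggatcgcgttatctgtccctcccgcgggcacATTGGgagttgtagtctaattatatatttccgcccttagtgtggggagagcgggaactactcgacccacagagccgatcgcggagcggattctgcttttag
SREBF2: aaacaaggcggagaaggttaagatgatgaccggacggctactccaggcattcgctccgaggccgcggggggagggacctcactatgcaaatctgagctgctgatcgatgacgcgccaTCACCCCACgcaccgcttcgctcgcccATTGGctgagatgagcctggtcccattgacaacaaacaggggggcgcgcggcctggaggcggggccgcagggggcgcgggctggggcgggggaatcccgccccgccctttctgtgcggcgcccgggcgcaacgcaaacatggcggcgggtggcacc
INSIG1: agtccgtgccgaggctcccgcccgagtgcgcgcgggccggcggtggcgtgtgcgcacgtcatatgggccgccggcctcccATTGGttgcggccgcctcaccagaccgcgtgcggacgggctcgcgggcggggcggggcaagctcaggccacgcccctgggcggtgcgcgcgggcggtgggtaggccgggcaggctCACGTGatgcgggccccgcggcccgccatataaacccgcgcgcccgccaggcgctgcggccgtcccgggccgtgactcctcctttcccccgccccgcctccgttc
IDI1: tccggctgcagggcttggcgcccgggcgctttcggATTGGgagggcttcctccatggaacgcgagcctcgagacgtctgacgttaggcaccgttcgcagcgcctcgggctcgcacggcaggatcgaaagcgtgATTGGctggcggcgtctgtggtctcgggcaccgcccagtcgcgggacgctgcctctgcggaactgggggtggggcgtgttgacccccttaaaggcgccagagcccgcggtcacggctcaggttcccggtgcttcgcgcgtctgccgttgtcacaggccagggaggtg
STARD4: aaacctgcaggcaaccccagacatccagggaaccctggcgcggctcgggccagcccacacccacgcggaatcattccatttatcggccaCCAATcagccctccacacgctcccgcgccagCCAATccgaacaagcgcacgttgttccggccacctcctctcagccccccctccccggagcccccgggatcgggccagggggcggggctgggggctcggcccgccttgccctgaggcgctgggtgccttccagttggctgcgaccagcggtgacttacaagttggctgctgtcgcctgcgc
Searched on both strands, the sterol element lay in 1 of the 24 windows (4.17%), that of SREBF2, 133 bases before the start site, and in 1.10% of the windows of all 15899 tested genes that had one. The E-box lay in 5 windows (20.8%, against 9.10%), those of LSS, SC5D, INSIG1, SCAP and ABCA1. CCAAT lay in 15 windows (62.5%, against 34.8%), with 3 copies in FDPS and 5 each in MVK and NSDHL. The motifs did not overlap one another in the windows shown, and a match is only a match of letters. Only the letters given were searched, so a window without a match is not shown to lack a site for the factor.

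Without ARID2 KO, the enzymes were expressed in both cell lines. Most of the 28 genes differed between the cell lines, as did most of all tested genes. Between the controls of SKmel147 and those of 501mel, 9 of 28 genes were lower and 16 higher in SKmel147, where 37.6% and 43.1% of all 19518 tested genes were. Per kilobase of exon, the highest control means in SKmel147 were those of NSDHL (30.99 CPM per kb), MSMO1 (25.4) and HMGCS1 (24.9), and the highest in 501mel were those of FDPS (38.8 CPM per kb), SREBF2 (29.95) and FDFT1 (18.3). ABCA1, which pumps cholesterol out of the cell, was at 48.4 to 90.8 CPM over all SKmel147 libraries and at 0 to 0.0981 CPM over all 501mel libraries. MYLIP, a ubiquitin ligase that sends lipoprotein receptors to degradation, had the opposite order, at 0.567 to 2.02 CPM over all SKmel147 libraries and at 14.5 to 23.9 CPM over all 501mel libraries, a control log2 fold change of -3.35 ± 0.21. Cell line and processing run cannot be told apart in these comparisons.

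In SKmel147, ARID2 KO lines had less RNA of many synthesis enzymes than the mean of both controls, including each of the 5 from isopentenyl diphosphate to lanosterol. Against the mean of NT and Par, 14 of the 28 genes fell, where 9.60% of all 18361 tested genes fell, and 1 rose, where 8.07% did (edgeR quasi-likelihood test, Benjamini-Hochberg adjusted p under 0.05, here and below). The median log2 fold change of the 28 genes was -0.35, against -0.012 over all genes. By role, 4 of 5 early mevalonate enzymes fell, 5 of 5 enzymes from isopentenyl diphosphate to lanosterol, 3 of 8 enzymes after lanosterol (with 1 that rose), 2 of 5 SREBP regulators, and none of the carriers and LXR targets. Relative to the control mean, the median gene was at -0.49 and -0.53 in the KO3.20 libraries, at -0.30 and -0.35 in KO1.4 and at -0.24 and -0.13 in KO1.5, against -0.16 and -0.18 in NT and 0.22 and 0.079 in Par. The NT libraries lay below Par and between those of KO1.5. Left out in turn, the libraries gave 8 to 13 genes that fell: 9 without replicate 1 of Par, 8 without replicate 1 of KO1.4 and 9 without replicate 2 of KO3.20; without the line KO1.4 there were 8, and without KO3.20 there were 5.

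**Figure D1:**
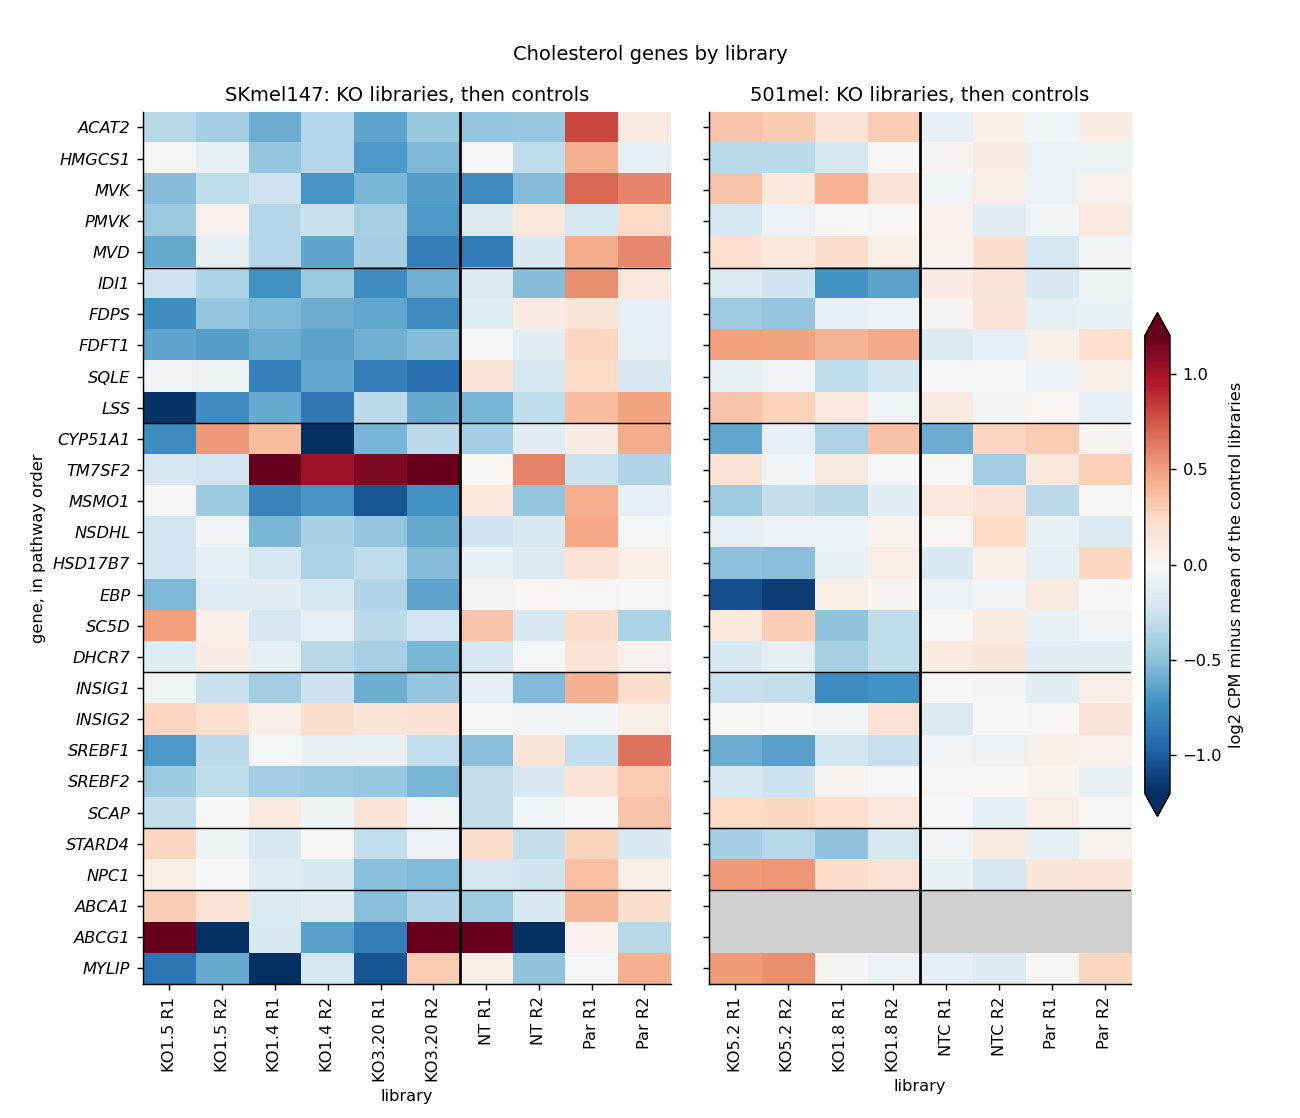
Columns are the libraries, with KO lines left of the controls, and rows are the 28 genes in pathway order, with lines between the role groups. Colour is log2 CPM minus the mean of the control libraries, and grey marks genes not tested. The SKmel147 enzyme rows are mostly blue in KO libraries, the early rows also in NT, while 501mel shows FDFT1, ACAT2 and NPC1 in red and INSIG1, SREBF1 and STARD4 in blue.

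The enzymes from isopentenyl diphosphate to lanosterol formed the group that fell in full in SKmel147, a result that needs Par among the controls. Of these enzymes, IDI1 and LSS were not called against NT alone. The changes given here are against the mean of NT and Par. FDPS, which makes farnesyl diphosphate, was at 44.9 and 54.7 CPM in KO1.5, 52.4 and 50.4 CPM in KO1.4 and 49.2 and 45.3 CPM in KO3.20, against 68.5 and 81.3 CPM in NT and 84.1 and 71.02 CPM in Par. FDFT1, squalene synthase and the step that commits farnesyl diphosphate to sterol, was at 75.2 and 73.9 CPM in KO1.5, 77.1 and 74.6 CPM in KO1.4 and 78.2 and 81.4 CPM in KO3.20, against 114 and 107 CPM in NT and 139 and 109 CPM in Par. For both genes every KO library lay below every control library. FDPS had a log2 fold change of -0.63 ± 0.089 (adjusted p = 0.000618) and FDFT1 of -0.61 ± 0.079 (adjusted p = 0.000323). They were also called in each KO line, at -0.62, -0.57 and -0.69 for FDPS and at -0.65, -0.63 and -0.55 for FDFT1 in KO1.5, KO1.4 and KO3.20.

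SQLE, squalene epoxidase, was at 94.5 and 92.6 CPM in KO1.5, 55.3 and 62.8 CPM in KO1.4 and 54.8 and 52.2 CPM in KO3.20, against 108 and 85.3 CPM in NT and 113 and 84.1 CPM in Par. The KO1.4 and KO3.20 libraries were lower than all controls, while those of KO1.5 lay within the range of the controls. Its log2 fold change was -0.55 ± 0.099 (adjusted p = 0.00259). LSS, which closes epoxidised squalene to lanosterol, was at 15.8 and 21.3 CPM in KO1.5, 23.5 and 19.7 CPM in KO1.4 and 28.8 and 23.6 CPM in KO3.20, against 24.3 and 28.96 CPM in NT and 46.2 and 49.99 CPM in Par. The KO libraries were below Par throughout, but those of KO3.20 overlapped NT. LSS changed by -0.71 ± 0.11 (adjusted p = 0.00101), the largest decrease among the 28 genes. IDI1, which isomerises the first isoprenoid unit, was at 49.2 to 69.4 CPM in the KO libraries, against 57.7 to 122 CPM in the controls and fell, with a log2 fold change of -0.53 ± 0.11 (adjusted p = 0.0055), with KO and control libraries overlapping.

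Among the early mevalonate enzymes, the KO libraries were mostly nearer to NT than to Par. MVK, mevalonate kinase, was at 7.28 and 8.47 CPM in KO1.5, 8.78 and 6.39 CPM in KO1.4 and 7.12 and 6.61 CPM in KO3.20, against 6.18 and 7.28 CPM in NT and 16.9 and 15.6 CPM in Par. Its KO libraries were all below Par and overlapped NT. ACAT2, which condenses acetyl-CoA at the start of the pathway, was at 23.03 and 21.8 CPM in KO1.5, 19.1 and 22.7 CPM in KO1.4 and 18.7 and 21.1 CPM in KO3.20, against 21.1 and 21.1 CPM in NT and 50.5 and 31.3 CPM in Par. Here too KO and NT libraries were alike in level, and replicate 1 of Par was the highest. MVD, the decarboxylase that yields isopentenyl diphosphate, was at 9.57 to 15.8 CPM in the KO libraries, against 9.47 to 25.2 CPM in the controls, with NT at 9.47 and 14.9 CPM. The log2 fold changes against both controls were -0.50 ± 0.12 for MVK, -0.48 ± 0.12 for ACAT2 and -0.49 ± 0.15 for MVD (adjusted p = 0.014, 0.0194 and 0.0425). HMGCS1, which makes HMG-CoA, was at 71.5 to 116 CPM in the KO libraries, against 93.3 to 155 CPM in the controls, and fell with a log2 fold change of -0.37 ± 0.10 (adjusted p = 0.0293). PMVK, phosphomevalonate kinase, was at 6.34 to 10.6 CPM in the KO libraries, against 8.89 to 12.1 CPM in the controls and was not called (-0.35 ± 0.14, adjusted p = 0.114). Exons of ACAT2 overlap those of TCP1 and SOD2 on the other strand, and exons of MVK overlap those of MMAB; whether counting used the strand is not known here.

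After lanosterol the genes divided. MSMO1, the methylsterol oxidase, was at 70.9 and 52.8 CPM in KO1.5, 41.1 and 43.8 CPM in KO1.4 and 35.1 and 43.3 CPM in KO3.20, against 77.9 and 51.9 CPM in NT and 97 and 66.9 CPM in Par. Its libraries spread widely, with KO1.5 in the range of NT and the other KO lines lower than all controls, and the log2 fold change was -0.64 ± 0.14 (adjusted p = 0.00911). NSDHL, a sterol dehydrogenase, and EBP, the sterol isomerase, also fell, with log2 fold changes of -0.39 ± 0.099 and -0.33 ± 0.092 (adjusted p = 0.018 and 0.028). EBP was at 32.3 to 45.7 CPM in the KO libraries, against 48.5 to 50.9 CPM in the controls, so its groups did not overlap, while NSDHL, at 39.8 to 58.9 CPM in the KO libraries, against 51.2 to 83.4 CPM in the controls, overlapped. DHCR7, the reductase that completes cholesterol, had a log2 fold change of -0.24 ± 0.085 (adjusted p = 0.0709). HSD17B7, a ketosteroid reductase, was at -0.29 ± 0.10 (adjusted p = 0.0706) and SC5D, the sterol desaturase, at -0.072 ± 0.14 (adjusted p = 0.779). None of these 3 was called. A pseudogene of HSD17B7, HSD17B7P2, was counted at 3.76 to 5.75 CPM in SKmel147, so reads may be shared between them.

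TM7SF2, the sterol reductase that acts after the demethylase, was the gene that rose. It was at 3.17 and 3.12 CPM in KO1.5, 10.4 and 7.39 CPM in KO1.4 and 7.95 and 8.83 CPM in KO3.20, against 3.699 and 5.51 CPM in NT and 3.06 and 2.84 CPM in Par. KO1.4 and KO3.20 were above all controls, and KO1.5 was within their range. Its log2 fold change was 0.74 ± 0.16 over all KO lines (adjusted p = 0.00661), at a level per kilobase of exon that was the lowest among the enzymes apart from CYP51A1. CYP51A1, the lanosterol demethylase, was counted at only 0.344 to 1.36 CPM in the KO libraries, against 0.713 to 1.29 CPM in the controls; 2844 bases of its exons overlap another gene annotated on the same strand, so its counts may not hold its full level. It was not called (-0.26 ± 0.35, adjusted p = 0.671).

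Of the regulators, SREBF2, whose protein drives the enzyme genes, was at 119 and 131 CPM in KO1.5, 122 and 119 CPM in KO1.4 and 118 and 111 CPM in KO3.20, against 132 and 142 CPM in NT and 182 and 199 CPM in Par. All KO libraries were below all controls, NT was next and Par was highest. SREBF2 had a log2 fold change of -0.43 ± 0.067 (adjusted p = 0.00102) and was called in each KO line. INSIG1, a sterol-sensing retention factor that is itself an SREBP target, was at 36.4 to 52.8 CPM in the KO libraries, against 37.8 to 73.5 CPM in the controls and fell, with a log2 fold change of -0.35 ± 0.099 (adjusted p = 0.0306). INSIG2, a related retention factor, was at 0.18 ± 0.079 (adjusted p = 0.146). SREBF1, the source of the SREBP-1 proteins, was at -0.30 ± 0.18, and SCAP, the escort protein, at -0.021 ± 0.099 (adjusted p = 0.287 and 0.916). None of these 3 was called. Exons of SREBF1 overlap RAI1 on the other strand, as do those of FDPS with RUSC1-AS1 and of NPC1 with RMC1, and TM7SF2 shares 16 bases with VPS51 on its own strand.

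The carriers and LXR targets were not called over all KO lines of SKmel147. STARD4, which carries sterol between membranes, was at 59.3 to 86.7 CPM in the KO libraries, against 59.8 to 87.5 CPM in the controls (-0.071 ± 0.12, adjusted p = 0.744). NPC1, which moves cholesterol out of lysosomes, was at 55.99 to 85.2 CPM in the KO libraries, against 68.8 to 104 CPM in the controls (-0.22 ± 0.074, adjusted p = 0.0578), and ABCA1 was at 48.4 to 84.3 CPM in the KO libraries, against 51.1 to 90.9 CPM in the controls (-0.12 ± 0.081, adjusted p = 0.344). In KO3.20 alone both were called lower, at -0.52 and -0.44. MYLIP had a log2 fold change of -0.55 ± 0.30 (adjusted p = 0.247). ABCG1, a second export pump, ranged from 0.0360 to 1.18 CPM and differed as much within a line as between lines, at 1.18 and 0.0367 CPM in KO1.5 (0.37 ± 0.97, adjusted p = 0.837).

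The KO lines did not share 1 pattern. Against both controls, KO1.5 had 4 genes that fell and none that rose (5.77% and 5.42% of all genes; 0 members higher at an unadjusted p under 0.05, and 0 by DESeq2), KO1.4 had 7 and 1 (4.80% and 3.97%), and KO3.20 had 14 and 1 (6.11% and 6.49%). In every KO line 3 genes were called with the same sign, FDPS, FDFT1 and SREBF2, where 3.39% of all genes were in either direction, and all 3 were lower. Together with EBP they made up the 4 genes whose KO libraries all lay on the same side of all controls, where 8.58% of all genes did in either direction, and all 4 lay below. Set directly against KO1.4 and KO3.20, KO1.5 was lower in TM7SF2 (-1.45 ± 0.21) and higher in SQLE (0.74 ± 0.13) and ABCA1 (0.53 ± 0.11; adjusted p = 0.00285, 0.00856 and 0.017), where 2.27% of all genes were lower and 2.12% higher. These counts rest on few libraries. Without replicate 1 or 2 of KO3.20, 3 and 1 genes fell in that line; without either library of KO1.4 none did (10 and 12 at an unadjusted p under 0.05 by the edgeR test); and without replicate 1 of KO1.5, 1 did. In the direct comparison 0 genes were higher without either library of KO1.5 (6 and 7 at an unadjusted p under 0.05), and 4 were without either library of Par.

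**Figure D2:**
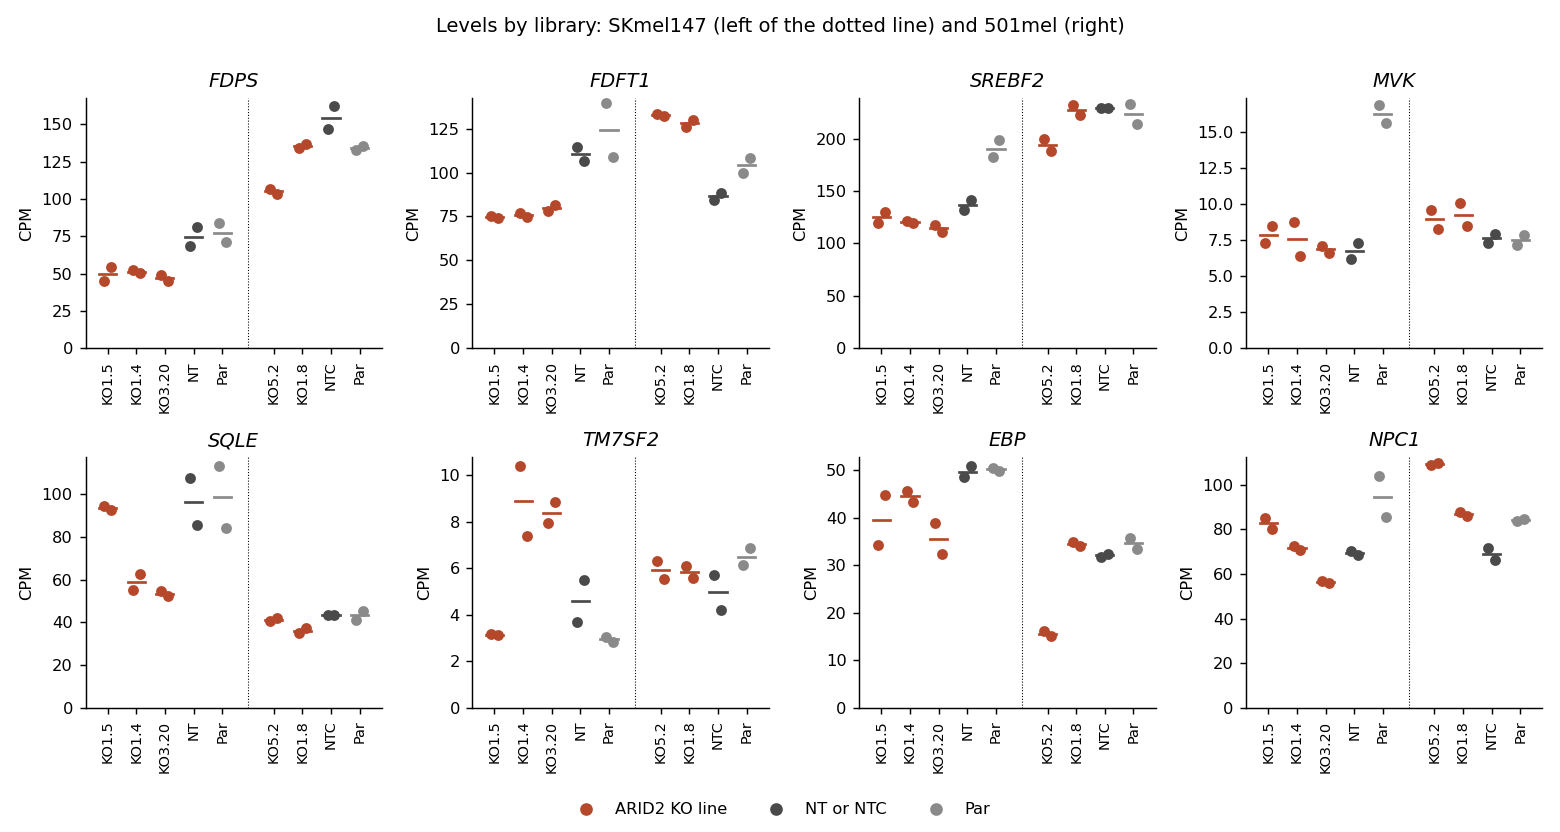
Dots are CPM in each library, bars the mean of the 2 libraries of a line, and KO lines stand left of the controls in each cell line. FDPS, FDFT1 and SREBF2 have all SKmel147 KO libraries below all controls; MVK is high only in Par, SQLE and TM7SF2 differ in KO1.5, and EBP is low in KO5.2 of 501mel.

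How much of the SKmel147 decrease appeared depended on which control line was used. NT carries a construct but no ARID2 KO, and between NT and Par 9 of the 28 genes were lower in NT and none was higher, where 5.45% and 3.82% of all genes were (edgeR; 1 member was higher at an unadjusted p under 0.05, and DESeq2 called none). The median was -0.34 in that comparison. The 9 genes were MVK (-1.27 ± 0.19), MVD (-0.99 ± 0.24), ACAT2 (-0.96 ± 0.19), LSS (-0.85 ± 0.17), IDI1 (-0.69 ± 0.17), INSIG1 (-0.63 ± 0.15), ABCA1 (-0.61 ± 0.13), SREBF2 (-0.48 ± 0.10) and NPC1 (-0.45 ± 0.12). FDPS, FDFT1 and SQLE were not called there, with 95% intervals of the change that include 0 (-0.36 to 0.25, -0.44 to 0.10 and -0.37 to 0.30). Without replicate 1 of NT, 3 of the 28 genes were lower in NT. Some chromosomes were shifted as a whole in this comparison: the median of 346 tested genes of chromosome 22, which holds SREBF2, was -0.53, near the value of SREBF2 itself. Chromosome 12, with MVK, was at -0.26, and chromosome 9, with ABCA1, at -0.17. Chromosome 8, with FDFT1 and SQLE, was shifted the other way, at 0.23. In the KO comparison these medians were -0.15, -0.11, -0.14 and 0.095, and in KO3.20 chromosome 21, with LSS, was at 0.36. The part of these shifts in the values of the genes was not tested.

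Against NT alone, 3 of the 28 genes fell in the KO lines and none rose, where 6.08% and 5.22% of all genes did (0 members were higher at an unadjusted p under 0.05 by the edgeR test). These were FDPS at -0.60 ± 0.11, SQLE at -0.54 ± 0.12 and FDFT1 at -0.53 ± 0.098 (adjusted p = 0.00438, 0.0149 and 0.00477). ACAT2, MVD and NPC1 were then near 0 (-0.35 to 0.35, -0.43 to 0.43 and -0.21 to 0.21 as 95% intervals), and MVK was at 0.14 ± 0.16. LSS, MSMO1 and SREBF2 kept a negative sign at -0.28 ± 0.14, -0.47 ± 0.18 and -0.19 ± 0.084 without a call (adjusted p = 0.235, 0.119 and 0.177). IDI1 was at -0.19 ± 0.14, HMGCS1 at -0.19 ± 0.13 and NSDHL at -0.16 ± 0.13 (adjusted p = 0.443, 0.404 and 0.476). EBP was at -0.32 ± 0.115 and INSIG1 at -0.031 ± 0.13 (adjusted p = 0.1 and 0.915). None of these was called either. Against Par alone 17 genes fell and 1 rose, where 11.7% and 8.01% of all genes did. The KO comparisons share these controls and are not independent of one another.

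**Figure D3:**
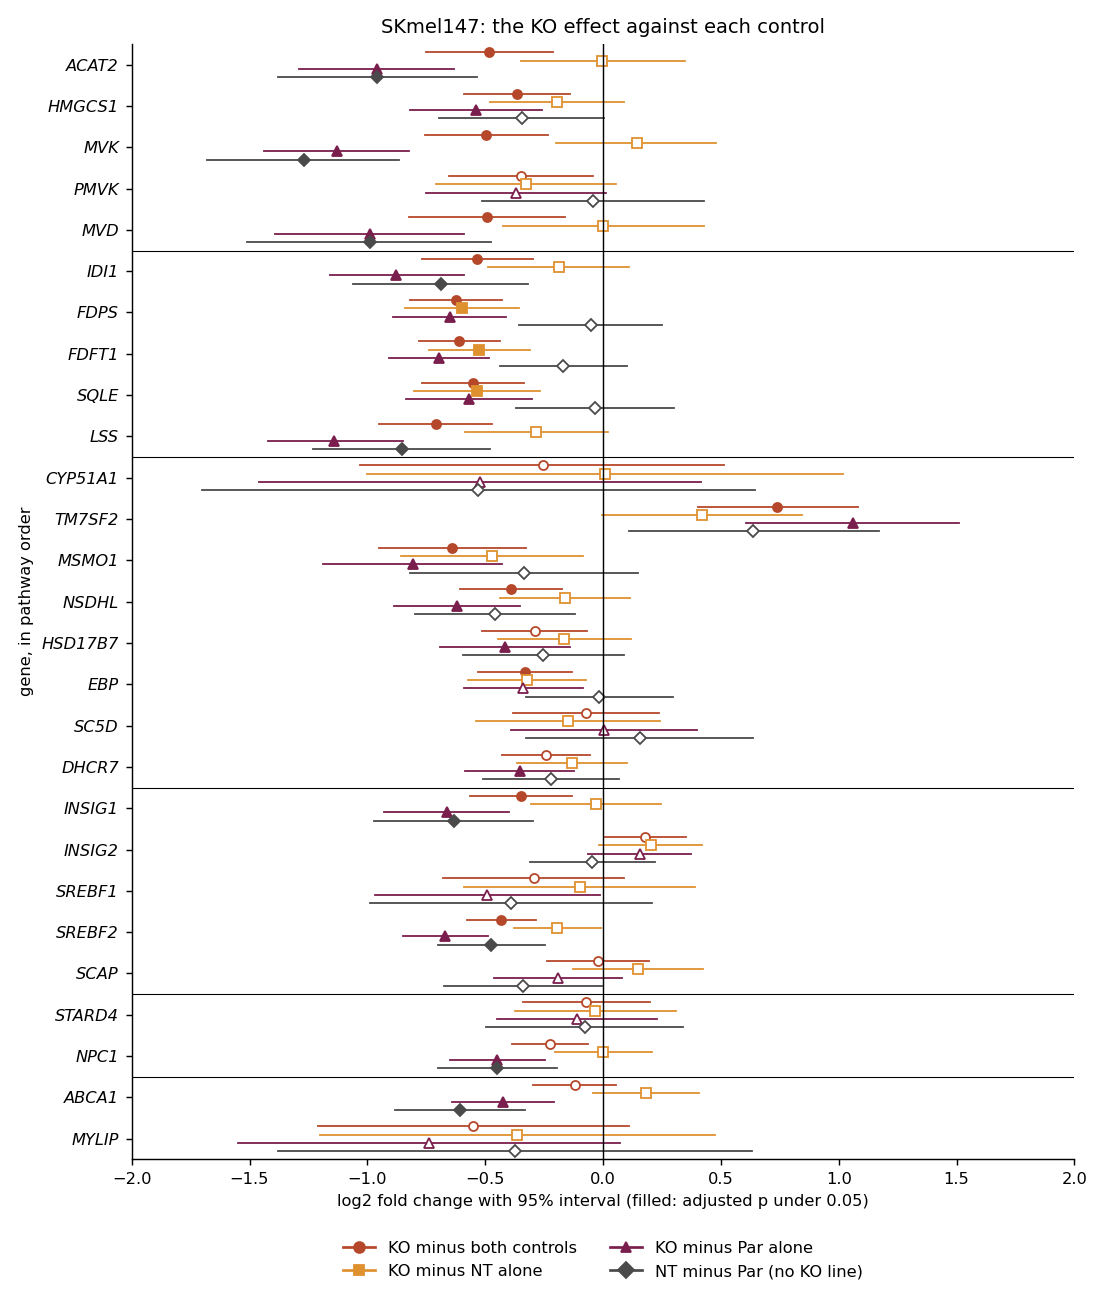
Log2 fold changes in SKmel147 with 95% intervals, by gene in pathway order, for the KO lines against both controls, against NT alone and against Par alone, and for NT minus Par; filled symbols have an adjusted p under 0.05, and ABCG1 is left out for its width. FDPS, FDFT1 and SQLE have similar values against either control, while ACAT2, MVK and MVD are near or above 0 against NT alone.

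GC content moved with the contrast between the controls. Across the 83.7% of tested genes with an annotated GC content, the log2 fold change of NT minus Par had a Spearman rho of -0.41 with GC content, and that of KO minus both controls had -0.063. The median GC content was 50.2% for the 28 genes and 47.7% over all genes. With offsets for GC content and length in each library, 10 of the 28 genes were lower in NT than in Par. They included 8 of the 9 called without offsets, and 1 gene was higher. The median of that comparison was then -0.29, against 0.031 over all genes, of which 1359 were lower and 1582 higher. In KO minus both controls, 17 genes fell and 1 rose with these offsets, the 14 among them. The calls over all 18361 genes there grew to 2599 lower and 2800 higher, against 1763 and 1482 without offsets. With limma voom and the line as a random block, 2 genes fell and none rose, FDPS and FDFT1 (adjusted p = 0.0114 and 0.00915; 9 fell and 0 rose at an unadjusted p under 0.05). Taking lines as replicates, with their counts summed, no gene was called in either direction by edgeR (7 fell and 0 rose at an unadjusted p under 0.05).

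In 501mel the same genes moved in both directions. Against the mean of NTC and Par, 12 of 26 tested genes fell, where 26.5% of all 16230 tested genes did, and 7 rose, where 24.7% did. The median was -0.098, against -0.011 over all genes. By role, 1 of 5 early mevalonate enzymes fell and 2 rose; 3 of 5 enzymes from isopentenyl diphosphate to lanosterol fell and 2 rose; 4 of 8 enzymes after lanosterol fell; 3 of 5 regulators fell and 1 rose; and 1 carrier fell while the other rose. MYLIP, the LXR target that was tested, rose. The share that rose was near that of all genes.

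FDFT1 had the largest increase of the 26 genes. It was at 134 and 132 CPM in KO5.2 and 126 and 130.1 CPM in KO1.8, against 84.5 and 88.5 CPM in NTC and 99.8 and 108 CPM in Par. All KO libraries were above all controls, and NTC was lower than Par. FDFT1 changed by 0.46 ± 0.041 (adjusted p = 4.88e-07), the opposite sign to that in SKmel147. NPC1 was at 109 and 109.7 CPM in KO5.2 and 87.9 and 85.99 CPM in KO1.8, against 71.6 and 66.2 CPM in NTC and 84.01 and 84.6 CPM in Par. Its KO libraries were again above the controls, with NTC lowest and KO5.2 highest, and the change was 0.36 ± 0.041 (adjusted p = 5.48e-06). ACAT2, at 37.5 to 42.5 CPM in the KO libraries, against 31.3 to 35.6 CPM in the controls, MVK, at 8.295 to 10.1 CPM in the KO libraries, against 7.201 to 7.95 CPM in the controls, and SCAP, at 57.3 to 62.04 CPM in the KO libraries, against 48.3 to 55.2 CPM in the controls, also had every KO library above every control, with log2 fold changes of 0.28 ± 0.056, 0.26 ± 0.097 and 0.21 ± 0.045 (adjusted p = 0.00082, 0.0354 and 0.00148). LSS (0.17 ± 0.053) and MYLIP (0.26 ± 0.069) rose with overlapping groups (adjusted p = 0.013 and 0.00638). MVD was not called, at 0.15 ± 0.075 (adjusted p = 0.113), and neither was TM7SF2, at 0.053 ± 0.12 (adjusted p = 0.737).

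INSIG1, SREBF1 and STARD4 fell without overlap in 501mel. All KO libraries were below all controls for 13.9% of all 16230 tested genes, and the share among the 26 was near that. INSIG1 was at 40.6 and 40.02 CPM in KO5.2 and 28.98 and 29.5 CPM in KO1.8, against 49.4 and 49.8 CPM in NTC and 44.7 and 51.3 CPM in Par. KO1.8 was lowest, KO5.2 was between it and the controls, and the change was -0.51 ± 0.052 (adjusted p = 1.69e-06). SREBF1 was at 35.3 and 34.1 CPM in KO5.2 and 45.99 and 44.3 CPM in KO1.8, against 51.9 and 50.8 CPM in NTC and 55.9 and 55.4 CPM in Par. Here KO5.2 was lowest, and the change was -0.43 ± 0.044 (adjusted p = 1.61e-06). STARD4 was at 18.2 and 19 CPM in KO5.2 and 17.3 and 20.7 CPM in KO1.8, against 23.5 and 25.9 CPM in NTC and 22.3 and 24.8 CPM in Par. Both KO lines were lower than all controls by a similar amount, with a log2 fold change of -0.36 ± 0.071 (adjusted p = 0.000738).

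The enzymes that fell in 501mel were spread along the pathway. IDI1 was at 46.98 and 44.7 CPM in KO5.2 and 32.2 and 33.9 CPM in KO1.8, against 56.4 and 58.95 CPM in NTC and 46.4 and 50.6 CPM in Par. KO1.8 was lower than every other line, and KO5.2 overlapped Par; the change was -0.44 ± 0.049 (adjusted p = 3.45e-06). FDPS was at 107 and 104 CPM in KO5.2 and 134 and 137 CPM in KO1.8, against 147 and 162 CPM in NTC and 133 and 136 CPM in Par. Only KO5.2 was below the controls, and the change over both KO lines was -0.27 ± 0.042 (adjusted p = 8.09e-05). The other enzymes that fell were MSMO1 (-0.30 ± 0.077), HSD17B7 (-0.26 ± 0.10), DHCR7 (-0.25 ± 0.046), HMGCS1 (-0.21 ± 0.049) and SQLE (-0.17 ± 0.049), with adjusted p of 0.00518, 0.0465, 0.000374, 0.00239 and 0.0117. SREBF2 fell, with a log2 fold change of -0.11 ± 0.041 (adjusted p = 0.0412), with its KO1.8 libraries at 233 and 223 CPM in the range of the controls. PMVK (-0.063 ± 0.067), CYP51A1 (-0.19 ± 0.22), NSDHL (-0.054 ± 0.062), SC5D (-0.089 ± 0.055) and INSIG2 (0.041 ± 0.081) were not called.

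EBP differed between the KO lines of 501mel more than any other of the 26 tested genes. It was at 16.1 and 15.2 CPM in KO5.2 and 34.96 and 34.03 CPM in KO1.8, against 31.8 and 32.4 CPM in NTC and 35.8 and 33.5 CPM in Par. KO1.8 was within the range of the controls, and KO5.2 was far below it, at a log2 fold change of -1.09 ± 0.070 (adjusted p = 1.28e-08), against 0.049 ± 0.062 in KO1.8 (adjusted p = 0.566). EBP lies on chromosome X, whose 550 tested genes had a median of 0.0053 in KO5.2. Over both KO lines EBP fell (-0.52 ± 0.053, adjusted p = 1.72e-06), and without the line KO5.2 its change was 0.049.

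Set directly against KO1.8, KO5.2 was lower in 6 of 26 genes and higher in 8, where 20.7% and 20.6% of all genes were. It was lower in EBP (-1.14 ± 0.078), HSD17B7 (-0.50 ± 0.15), SREBF1 (-0.38 ± 0.063), FDPS (-0.37 ± 0.059), SREBF2 (-0.23 ± 0.058) and HMGCS1 (-0.23 ± 0.069). It was higher in SC5D (0.60 ± 0.077), MYLIP (0.56 ± 0.094), IDI1 (0.47 ± 0.070), INSIG1 (0.46 ± 0.075), NPC1 (0.33 ± 0.057), LSS (0.28 ± 0.073), DHCR7 (0.20 ± 0.066) and SQLE (0.19 ± 0.070). The median gene of chromosome 8, with SQLE, was at 0.29 here, and that of chromosome 11, with SC5D and DHCR7, at 0.26. Chromosome 10, with IDI1, was at 0.25, and chromosome X, with EBP, at -0.25. The part of these shifts in the values of the genes was not tested. Against both controls, KO5.2 had 11 genes that fell and 7 that rose (27.0% and 26.5% of all genes), and KO1.8 had 7 and 4 (20.1% and 20.1%). SC5D had called changes of opposite sign, at 0.21 ± 0.065 in KO5.2 and -0.39 ± 0.069 in KO1.8 (adjusted p = 0.0132 and 0.000391). Without replicate 2 of KO5.2, 3 genes were lower in KO5.2 than in KO1.8, and without its replicate 1, 5 were higher.

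**Figure D4:**
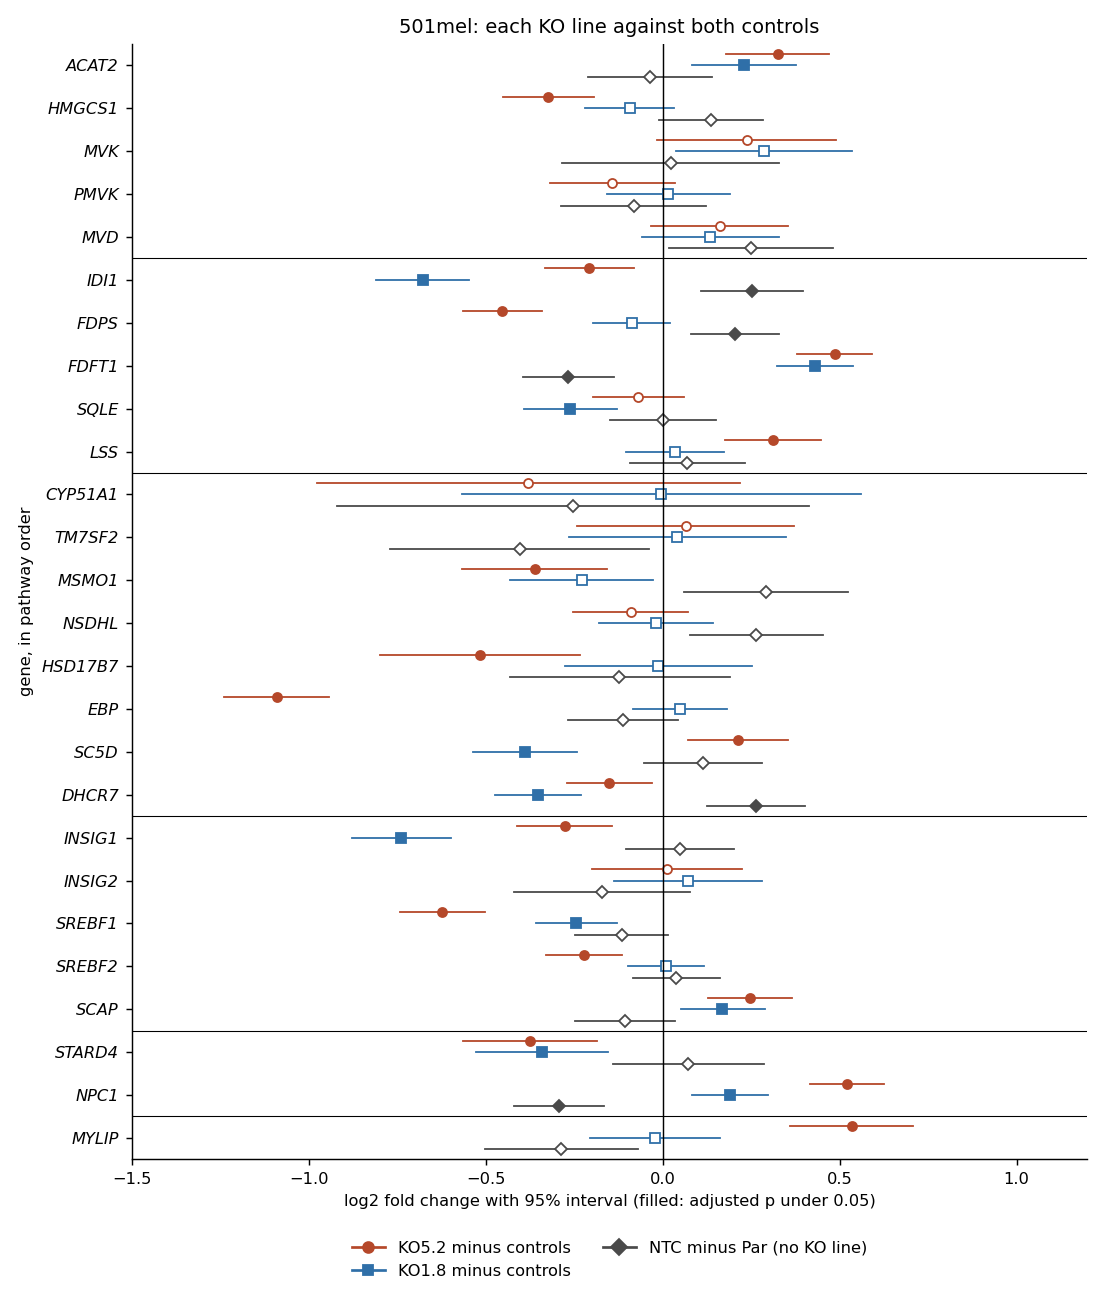
Log2 fold changes in 501mel with 95% intervals, by gene in pathway order, for KO5.2 and KO1.8 against both controls and for NTC minus Par; filled symbols have an adjusted p under 0.05. EBP stands at -1.09 in KO5.2 and near 0 in KO1.8, INSIG1 and IDI1 are lowest in KO1.8, and FDFT1 is raised by a similar amount in both.

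Genes called with the same sign in both KO lines of 501mel were IDI1, INSIG1, SREBF1, STARD4 and DHCR7, which were lower (5 of 26, against 11.7% of all genes), and FDFT1, ACAT2, SCAP and NPC1, which were higher (4 of 26, against 12.3%). KO libraries were all below all controls for 3 genes (13.9% of all genes) and all above for 5 (13.2%). Chromosomes as a whole were shifted in these lines: in KO5.2 the median gene of chromosome 8, which holds FDFT1 and SQLE, was at 0.31, and that of chromosome 6, with ACAT2 and MYLIP, at 0.23. In KO1.8 these medians were 0.0021 and 0.12, chromosome 11, with TM7SF2, SC5D and DHCR7, was at -0.26, and chromosome X, with NSDHL and EBP, at 0.20. FDFT1 was at 0.49 in KO5.2 and 0.43 in KO1.8. SC5D and DHCR7 in KO1.8 were at -0.39 and -0.35, and the part of the shift of chromosome 11 in this was not tested.

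Between NTC and Par of 501mel, 2 of 26 genes were lower in NTC, FDFT1 (-0.27 ± 0.060) and NPC1 (-0.29 ± 0.059), and 3 were higher, DHCR7 (0.26 ± 0.065), IDI1 (0.25 ± 0.067) and FDPS (0.20 ± 0.059), where 8.93% and 6.77% of all genes were. The median gene of chromosome 10, which holds IDI1, was at 0.19 in NTC minus Par. These controls are shared with the KO comparisons, so the values are not independent of the KO changes. Against NTC alone 12 genes fell and 5 rose (25.7% and 23.9% of all genes), and against Par alone 7 fell and 6 rose (20.9% and 18.1%). FDFT1 was at 0.59 ± 0.052 against NTC and 0.33 ± 0.051 against Par, and INSIG1 at -0.53 ± 0.062 and -0.48 ± 0.063, all called. Without the line KO5.2, 7 genes fell and 4 rose. With limma voom and the line as a random block, no gene fell (4 did at an unadjusted p under 0.05) and 1 rose, FDFT1 (adjusted p = 0.032). Taking lines as replicates, edgeR called none (3 fell and 1 rose at an unadjusted p under 0.05). Without replicate 1 of Par or replicate 2 of NTC, no gene was higher in NTC than in Par (4 and 2 at an unadjusted p under 0.05 by the edgeR test); without replicate 2 of Par or either library of NTC, 1 gene was lower.

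Set against both controls, the KO changes of the cell lines differed in sign or size for several enzymes up to lanosterol, in the test of the difference itself. In a joint fit of all 18 libraries, the KO change was lower in SKmel147 than in 501mel for 9 of 28 genes, where 9.99% of all 19518 tested genes were, and higher for 1, where 11.3% were. The median difference was -0.25, against 0.018 over all genes. FDFT1 had the largest called difference, -1.06 ± 0.097 (adjusted p = 6.91e-07). LSS followed with -0.88 ± 0.13 and ACAT2 with -0.75 ± 0.16 (adjusted p = 0.000149 and 0.00256), then MVK with -0.75 ± 0.16, MVD with -0.64 ± 0.19 and NPC1 with -0.57 ± 0.087 (adjusted p = 0.00259, 0.027 and 0.000152). SQLE (-0.38 ± 0.13), FDPS (-0.35 ± 0.11) and SREBF2 (-0.32 ± 0.079) were called lower in both cell lines and fell more in SKmel147 (adjusted p = 0.0421, 0.0284 and 0.00816). TM7SF2 was higher in SKmel147, by 0.70 ± 0.21 (adjusted p = 0.0236).

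By role, 3 of 5 early enzymes and 4 of 5 enzymes from isopentenyl diphosphate to lanosterol were among the 9, and none of the 8 enzymes after lanosterol. For DHCR7, SC5D and HSD17B7 the 95% intervals of the difference were -0.20 to 0.24, -0.35 to 0.40 and -0.33 to 0.29. IDI1, INSIG1 and EBP, called lower in both cell lines, had intervals of -0.38 to 0.21, -0.099 to 0.44 and -0.044 to 0.44. With GC and length offsets 13 of the 28 genes were lower in this test, as were 3129 of all 19518 tested genes. They included MSMO1 at -0.40 ± 0.13 and NSDHL at -0.38 ± 0.12 (edgeR, adjusted p = 0.0248 and 0.0219). The other enzymes after lanosterol were not called lower with these offsets. With the transduced controls NT and NTC alone, 2 genes remained lower in this test, FDFT1 at -1.11 ± 0.12 and NPC1 at -0.49 ± 0.11. Here 1 was higher, INSIG1 at 0.51 ± 0.16 (adjusted p = 6.02e-06, 0.00389 and 0.0299, in that order). Of all genes, 8.92% were lower and 9.84% higher. FDFT1 was then the only enzyme called, and the median difference of the 28 genes was -0.0033, against 0.025 over all genes. With voom and the line as a random block, FDFT1 alone was lower and none higher (adjusted p = 0.00161; 4 and 0 at an unadjusted p under 0.05). Taking lines as replicates, edgeR called none (3 and 0 at that unadjusted p). TM7SF2 was no longer called without replicate 1 of NT, replicate 2 of Par, replicate 1 of NTC, replicate 2 of KO1.8 or replicate 2 of KO5.2, the last 4 of 501mel.

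**Figure D5:**
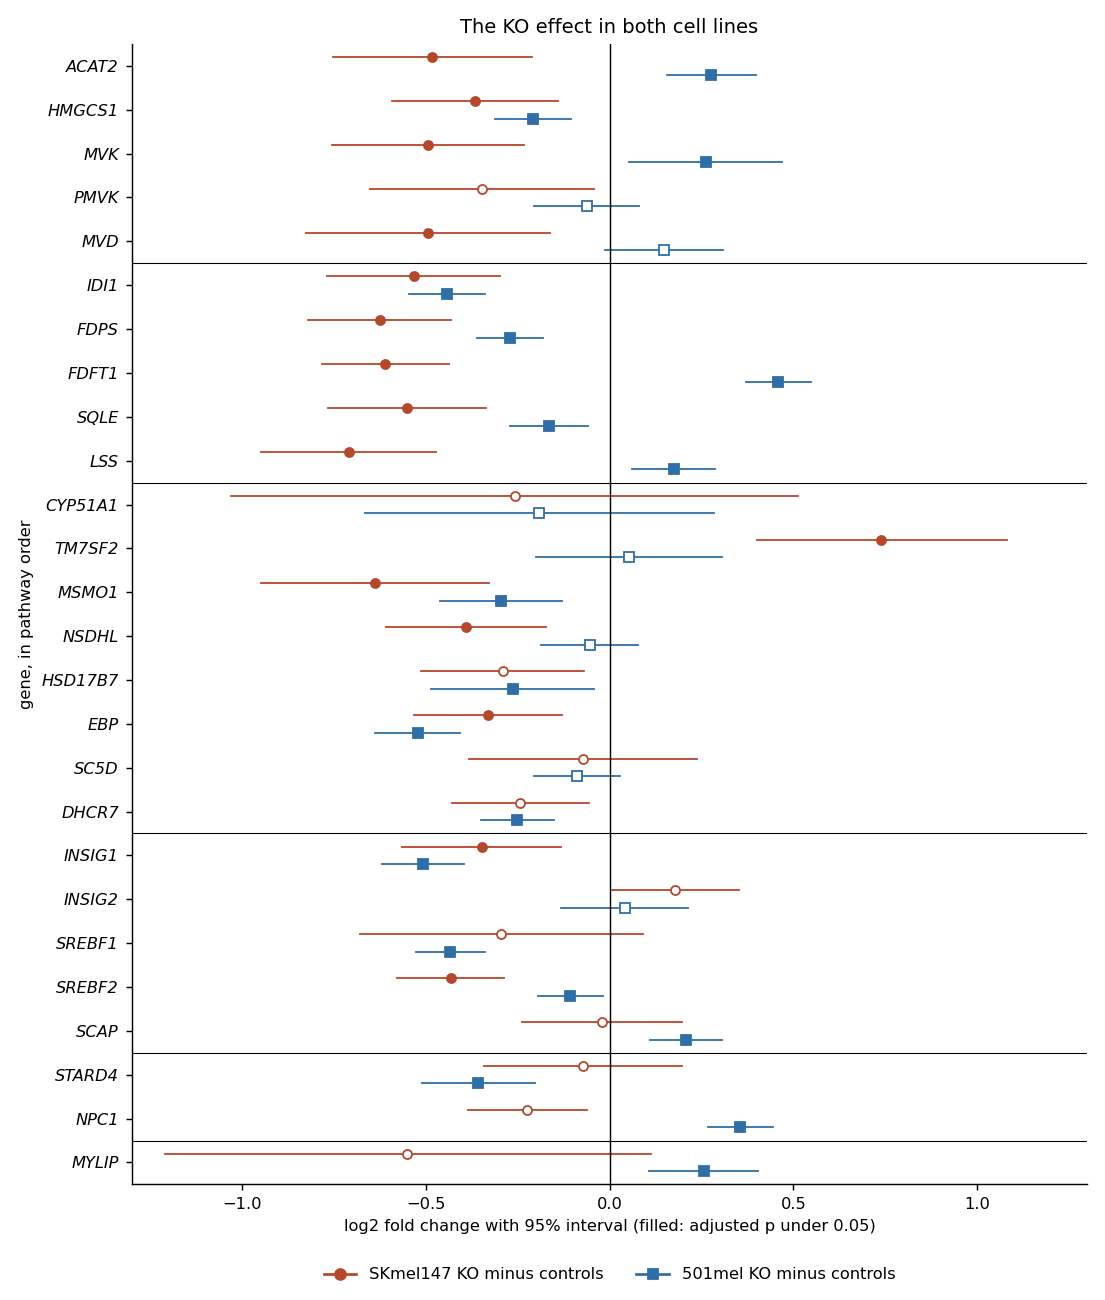
Log2 fold changes of KO minus controls with 95% intervals, by gene in pathway order, in SKmel147 and 501mel; filled symbols have an adjusted p under 0.05. FDFT1, LSS, MVK and ACAT2 lie on opposite sides of 0, while IDI1, MSMO1, EBP and INSIG1 lie below 0 in both.

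Of 46 other genes of sterol, isoprenoid and fatty acid metabolism, 44 were tested in SKmel147, where 12 fell and 5 rose (9.60% and 8.07% of all genes did), with a median of -0.060. In 501mel 43 were tested, and 14 fell and 17 rose (26.5% and 24.7% of all genes did), with a median of 0.052. The shares that rose in SKmel147 and fell in 501mel were near those of all genes. In SKmel147 6 of 9 fatty acid genes under SREBP fell and none rose, against the same shares of all genes, and in 501mel 4 fell and 3 rose, the rising share being near the share of all genes. FASN, fatty acid synthase, was at 233 to 311 CPM in the KO libraries, against 266 to 594 CPM in the controls, with NT at 266 and 375 CPM and Par above every KO library (-0.60 ± 0.12, adjusted p = 0.0047). VLDLR, a lipoprotein receptor, was at 6.99 and 5.17 CPM in KO1.5, 9.21 and 9.45 CPM in KO1.4 and 10.4 and 12.1 CPM in KO3.20, against 14.8 and 20.3 CPM in NT and 17.4 and 19.9 CPM in Par. In 501mel it was at 31.1 and 29.9 CPM in KO5.2 and 51.3 and 51.6 CPM in KO1.8, against 72.02 and 75.9 CPM in NTC and 75.9 and 70.8 CPM in Par. All KO libraries were below all controls in both cell lines, with changes of -1.07 ± 0.12 in SKmel147 and -0.90 ± 0.046 in 501mel (adjusted p = 0.000146 and 1.24e-09), and the interval of the difference was -0.46 to 0.14.

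LRP8, another receptor of that family, fell in SKmel147 (-0.46 ± 0.066, adjusted p = 0.000594) and was at 0.0034 ± 0.047 in 501mel, a difference of -0.46 ± 0.079 (adjusted p = 0.00046). COQ2, which attaches the isoprenoid tail of ubiquinone, rose in every KO line of SKmel147. It was at 17.8 and 15.7 CPM in KO1.5, 14.3 and 15.9 CPM in KO1.4 and 15.3 and 13.9 CPM in KO3.20, against 9.64 and 7.203 CPM in NT and 5.53 and 7.399 CPM in Par. All KO libraries were above all controls, with a change of 1.07 ± 0.13 (adjusted p = 0.000155), against -0.040 ± 0.084 in 501mel (adjusted p = 0.722); the difference was 1.12 ± 0.16 (adjusted p = 8.31e-05). In 501mel, FADS2, a fatty acid desaturase, fell in both KO lines (-0.79 ± 0.088, adjusted p = 3.91e-06). PDSS2, which helps to build the ubiquinone tail, ACSS2, which makes acetyl-CoA from acetate, ERLIN2, which takes part in sterol-dependent degradation, and LIPA, the lysosomal lipase that frees cholesterol from its esters, rose in both, by 0.71 ± 0.076, 0.53 ± 0.062, 0.47 ± 0.049 and 0.45 ± 0.045 (adjusted p = 2.61e-06, 6.37e-06, 1.97e-06 and 1.43e-06).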

How the data were processed

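Polyadenylated RNA of 10 SKmel147 and 8 501mel libraries was sequenced after directional library preparation, per the labels' protocols. The deposited tables hold raw counts per gene symbol; per the submitters' processing notes, the tools used include STAR (version 2.6.0) and featureCounts, with the builds GRCh37 and hg19. For the annotation and strand setting, none is given in the sources used here. In the SKmel147 table the NT columns are headed NTC, and they were matched to NT, the only such control of that cell line. There were 0 other columns of per-sample values.

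Each table was fitted whole in R (version 4.3.3) with edgeR (version 4.0.16): TMM scaling, filterByExpr with the line as group, 1 mean per line, and quasi-likelihood tests of contrasts that weight lines equally, with Benjamini-Hochberg adjustment over all tested genes and an adjusted p under 0.05 as the threshold. Intervals cover 95%. CPM values were computed with TMM-scaled library sizes. A joint fit of both tables tested the difference of the KO changes and the difference of the controls. The procedure was tested on simulated data. Libraries of a line differed by more than counting noise, so each was counted. This spread was wider in every SKmel147 line than in any 501mel line. Chi-square values per degree of freedom were lowest in KO5.2 (2.51) and highest in Par (4.86) among the 501mel lines. Among the SKmel147 lines they were lowest in KO1.4 (15) and highest in Par and NT (39.2 each). The part of this spread in the counts of called genes of each cell line was not tested.

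The 28 genes, the 46 other pathway genes and the promoter motifs were chosen with earlier results of these data known. All 28 are named; of the 46, those called with the same sign in every KO line of a cell line are, at most 6 per cell line, by smallest p. Promoters were taken for the 28 genes called in that way, at most 6 per cell line by smallest p and none on chromosome 8; of the 8 taken, the 5 that held a searched motif were printed, a choice made after the windows were seen. SCAP also has a window with a motif and was outside the 6. The comparisons of KO1.5 with KO1.4 and KO3.20 and of KO5.2 with KO1.8 were added after the data were seen. Alternatives were DESeq2 (version 1.42.0), no filter on low counts, a replicate block, GC and length offsets (splines with 5 degrees of freedom), limma voom (version 3.58.1) with the line as a random block, the line as the replicate, single control lines, and each library or KO line left out; those for the difference between cell lines and the single-line comparisons were partly added later. GENCODE 29 gave lengths, GC content and overlaps, with 35347 of 56629 symbols matched.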

Additional observations from a re-analysis of the deposited data

Results flagged for a closer look

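For 10 of the 28 genes, the KO change differed between SKmel147 and 501mel in the joint edgeR fit, at an adjusted p under 0.05: 9 were lower and 1 higher, where 9.99% and 11.3% of all genes were. The difference, SKmel147 minus 501mel on the log2 scale, was -1.06 for FDFT1, -0.875 for LSS, -0.752 for ACAT2, -0.751 for MVK, -0.635 for MVD, -0.571 for NPC1, -0.378 for SQLE, -0.346 for FDPS and -0.317 for SREBF2. For TM7SF2 it was 0.696. With the transduced controls NT and NTC alone, 2 of the 9 lower calls stayed, FDFT1 and NPC1, the call of TM7SF2 was lost, and INSIG1 was called higher. Against both controls, FDFT1, ACAT2, MVK and LSS were called lower in SKmel147 and higher in 501mel, while FDPS, SQLE and SREBF2 were called lower in both. Cell line, vector system and processing run cannot be told apart in this difference. No library stood apart by Dixon's criterion in the 106 sets of libraries tested. Each set held the libraries of all lines of an arm. Differences between lines widen its range, so the criterion says little about how far the libraries of a line lie apart.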

How the results depend on the processing

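Under the alternatives, 392 counts of called genes stayed within 1.5 times the reported count and 72 did not; of the log2 fold changes of single genes, 37 changed sign, 175 lost and 15 gained a call, and 883 did none of these. The cause of these changes was not tested. Replicate numbers did not pair the libraries in a consistent way. In SKmel147 the deviations of same-numbered libraries correlated positively among Par, NT and KO1.5 (0.313 to 0.563) and between KO1.4 and KO3.20 (0.117). Across these sets the correlations were negative (-0.481 to -0.193). In 501mel they were between -0.00538 and 0.201. The source of this structure was not tested, and the replicate block takes the numbers as they stand. With that block the genes higher in NTC than in Par became 5, with no other count of calls moving by over 1.5 times. Over all genes, those lower in NTC grew from 1449 to 1989. The libraries hold 2 per line, which limits what single-line comparisons can show.

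Counts are given as lower, then higher, where both are named. DESeq2 gave 5 genes higher in KO1.5 than in KO1.4 and KO3.20, 2 higher in KO1.8 and 0 higher in NTC than in Par (5 at an unadjusted p under 0.05). Without the low-count filter 11 genes fell in KO1.4, 6 were higher in KO1.5 than in KO1.4 and KO3.20, and 5 were higher in NTC. With GC and length offsets 11 fell in KO1.4, 7 fell and 1 rose in KO1.5, 1 was higher in NT than in Par, 7 were higher in KO1.5 than in KO1.4 and KO3.20, 7 were higher in NTC, 2 had a higher KO change in SKmel147 than in 501mel, and NSDHL in 501mel was at 0.0193. With the line as the replicate, edgeR called 0 and 0 genes in SKmel147 (7 and 0 at an unadjusted p under 0.05), 0 and 0 in 501mel (3 and 1), and 0 and 0 for the difference (3 and 0). With voom and the line as a random block, the counts were 2 and 0 in SKmel147 (9 and 0 unadjusted), 0 and 1 in 501mel (4 and 2), and 1 and 0 for the difference (4 and 0).

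Against Par alone 15 genes fell in KO1.4, 8 fell in KO1.5 and 7 in the 501mel KO lines, and 1 rose in KO1.8; SC5D in SKmel147 was at 0.00549, and in 501mel TM7SF2 was at -0.149, NSDHL at 0.0785 and INSIG2 at -0.0446. Against NT alone 3 genes fell and 0 rose in SKmel147 (6 and 0 unadjusted), 3 fell in KO1.4, 2 fell and 1 rose in KO1.5, and 3 fell in KO3.20; MVK was at 0.142, MVD at 0.000915, CYP51A1 at 0.0091, SCAP at 0.15, NPC1 at 0.000461, ABCA1 at 0.183 and ABCG1 at -0.424. With NT and NTC alone 2 genes had a lower KO change in SKmel147. Without the line KO1.4, 8 genes fell and 0 rose in SKmel147 (17 and 1 unadjusted), and without KO3.20, 5 and 0 (13 and 1), with SC5D at 0.049 and ABCA1 at 0.0422. Without KO1.5, SCAP was at 0.0468 and ABCG1 at -0.0557. In 501mel SC5D was at 0.208 without KO1.8, and without KO5.2 the counts were 7 and 4, PMVK was at 0.0161, EBP at 0.0488, SREBF2 at 0.00888 and MYLIP at -0.0211.

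With single libraries left out, the SKmel147 KO lines had 8 to 13 genes lower and 1 higher; KO1.4 had 0 to 10 lower and 0 to 1 higher, KO1.5 had 1 to 5 lower, and KO3.20 had 1 to 15 lower. NT had 3 to 9 lower than Par, and KO1.5 had 0 to 4 higher than KO1.4 and KO3.20. The 501mel KO lines had 9 to 11 lower and 5 to 7 higher, KO5.2 had 3 to 6 lower and 5 to 8 higher than KO1.8, and NTC had 1 to 3 lower and 0 to 3 higher than Par. The difference had 6 to 10 lower and 0 to 1 higher. Among the genes that changed sign in SKmel147, SC5D lay between -0.2 and 0.1, STARD4 between -0.186 and 0.0643, SCAP between -0.0961 and 0.0723, and ABCG1 between -0.941 and 2.14. The signs turned for SC5D (0.1 and 0.0726) and STARD4 (0.0565 and 0.0643) without replicate 1 of Par or of NT, and for SCAP (0.0723, 0.0362, 0.00487, 0.0318 and 0.0147) without replicate 2 of Par, NT or KO1.4, replicate 1 of KO1.5 or replicate 2 of KO3.20. ABCG1 was at -0.0884, -0.941 and -0.455 without replicate 2 of NT, replicate 1 of KO1.5 or replicate 2 of KO3.20. In 501mel CYP51A1 was at 0.07, TM7SF2 at -0.0501 and NSDHL at 0.00573 without replicate 2 of NTC, and INSIG2 at -0.0174 without replicate 2 of KO1.8; their other ends were -0.403, 0.166, -0.0978 and 0.0948.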
